A study of Mus musculus with 6 samples.

Results

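Collagen chain genes encode the protein chains that wind around each other into the helical trimers of collagen. They were taken here as every gene whose array symbol is Col, a number, the letter a and a number, measured by a probe set that the array annotation gives to 1 gene only. The rule found 44 genes on 46 probe sets, among 19938 genes so measured, and each gene is represented by its probe set of highest mean over all arrays. Of the 44, 11 are fibrillar, 9 belong to basement membranes, 9 associate with fibrils, 6 form beaded filaments, 3 form hexagonal networks, 4 span the cell membrane and 2 remain outside these classes. The samples were medullary epithelial cells of the thymus, sorted as CD45-, Ly51int and high for MHC class II. Donor mice were 4 to 6 weeks old, with 3 mice labelled Aire WT and 3 labelled Aire KO (Aire-/-). Every one of the 6 mice had a (B6xNOD)F1 background, and each was hybridised on an array of its own after 2 rounds of RNA amplification. Neither the deleted part of Aire nor the sex of the mice is in the labels.

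Collagens hold tissues together in different ways. Fibrillar collagens make the cables of skin, tendon, bone and cartilage, type IV collagens make the sheet under every epithelium, and fibril-associated and beaded-filament collagens join fibrils to each other and to cells. Fibroblasts, cartilage cells and bone cells are the main makers of fibrillar collagens, while epithelial cells contribute to their own basement membrane. Medullary epithelial cells display proteins of many organs to developing T cells, and Aire is a transcriptional regulator of that display. The comparison of the groups asks which collagen chains depend on Aire in these cells.

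Values below are log2 intensities, differences are the KO mean minus the WT mean, and errors are SDs over 3 mice unless called SE. The number of arrays limits the precision, and RMA intensities carry no detection call. A gene counted as tested when 3 or more arrays put it above 5.97, the 40th percentile of the table, and as called when limma gave a Benjamini-Hochberg adjusted p under 0.05 over all 13925 tested genes. Array medians ran from 92.9 to 98.2 on the intensity scale. Aire itself stood at 11.97 ± 0.04 in WT and 12.41 ± 0.02 in KO mice, higher in the mice labelled KO, and with the deleted part not given this signal does not check the labels. All 12 markers of medullary epithelial cells were tested, and their summed intensity was 41081 to 42947 in WT and 42194 to 45714 in KO mice. Of the 12, Krt5, Krt14 and Epcam fell, by 0.84, 0.44 and 0.37 on the log2 scale (limma adjusted p = 0.00047, 0.012 and 0.021), and Aire rose.

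Collagen chains moved in both directions. Of the 43 tested chains, 6 fell and 6 rose, and 31 were not called. That is 27.9% called, beside 26.2% of all tested genes (14.1% lower and 12.0% higher), so the share lies near the background. The counts by class below stand beside the same shares of all tested genes. In these bulk samples, fewer cells of a type and less RNA per cell cannot be told apart. The chains that fell were Col6a5, Col10a1, Col1a1, Col12a1, Col6a3 and Col4a1, and those that rose were Col14a1, Col19a1, Col25a1, Col9a3, Col8a2 and Col26a1. Of these, Col8a2 was above the filter on the KO arrays alone, so it had to be higher to be tested. Changes were small. Of the called chains 4 moved by 1.5-fold or more, beside 7.04% of all tested genes that did so, and 0 moved by 2-fold or more by limma, beside 2.64% of all tested genes. At an unadjusted limma p under 0.05, with no fold required, 8 chains were lower and 12 higher, beside 19.4% and 19.2% of all tested genes. The groups did not overlap for 24 of the 43 chains, beside 42.4% of all tested genes. Without KO replicate 1, KO replicate 2 or KO replicate 3, the number that rose was 2, 2 and 3.

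**Figure D1:**
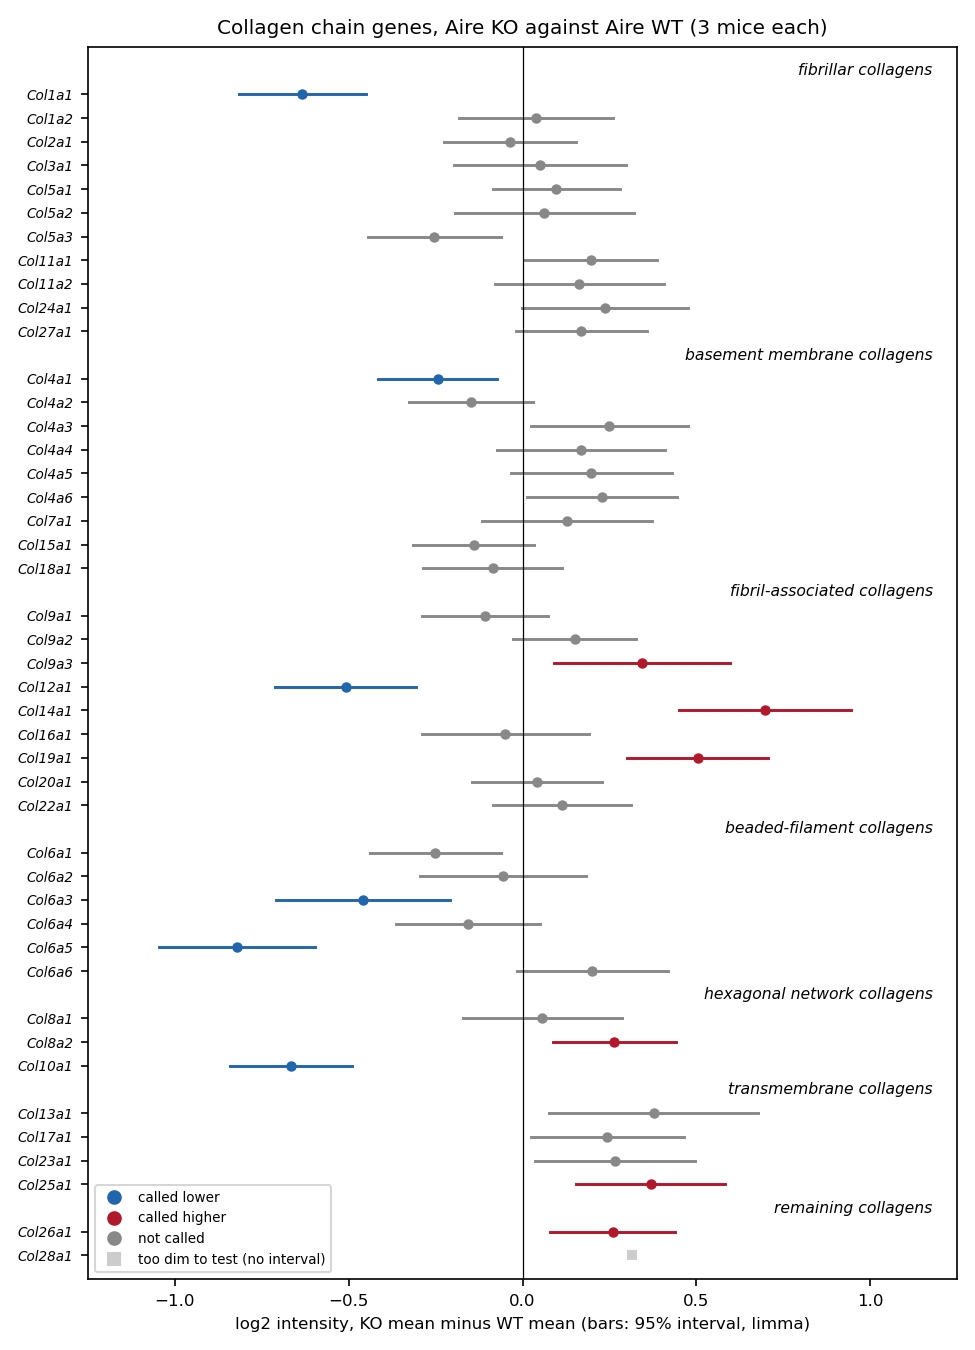
Difference in log2 intensity (KO mean minus WT mean, 3 mice each) for the 44 collagen chain genes by class, with 95% intervals from limma. Blue marks the 6 called lower, red the 6 called higher, dark grey the 31 not called, and the light square Col28a1, which was too dim to test.

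The median difference of the tested chains was 0.10, beside 0.02 over all tested genes, and 27 of 43 were above 0. The median was 0.03 without WT replicate 3. That array gave the lowest collagen values, with a median deviation of -0.15 from each chain's own mean, beside deviations of -0.01 to 0.13 on the other 5 arrays and 0.01 for all tested genes on the same array. Small positive differences were most frequent among dim chains. Of the 14 tested chains with a mean log2 intensity under 7, 11 were above 0 (median 0.20, beside 0.05 for all 4028 tested genes in that range). Of the 9 chains at 8 or more, 3 were above 0 (median -0.24, beside -0.01 for 5950 genes). Whether signal level has a part in the direction was not tested.

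**Figure D2:**
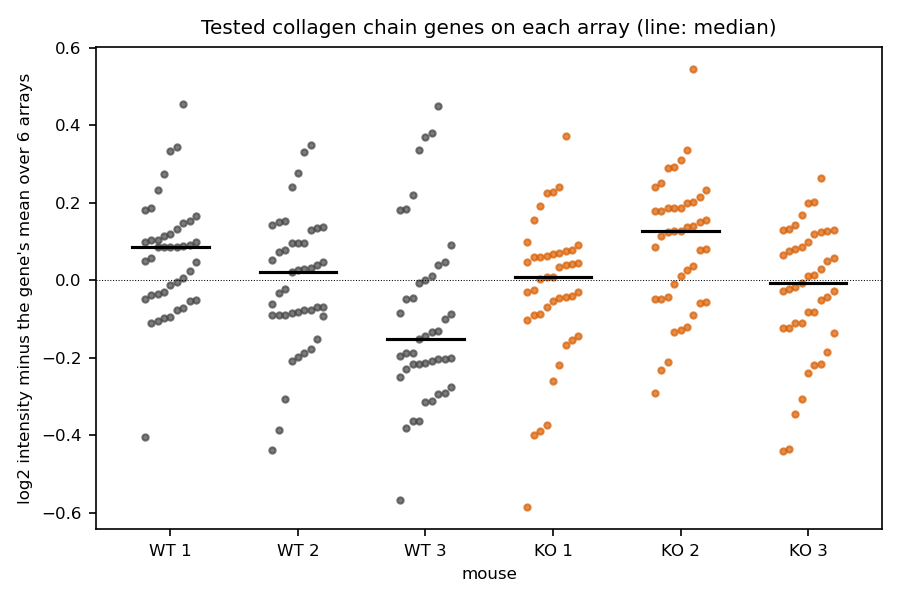
Log2 intensity of the 43 tested collagen chain genes on each array, as the deviation from each gene's mean over the 6 arrays (points: genes, line: median, WT grey and KO orange). WT replicate 3 has the lowest median, -0.15, and KO replicate 2 the highest, 0.13.

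Among the 11 fibrillar collagens, Col1a1 was called lower and the other 10 were not called. Col1a1 encodes the chain that makes up most of type I collagen, the main protein of bone, tendon and skin. Its log2 intensity was 8.46, 8.58 and 8.60 in the WT mice and 7.85, 8.0 and 7.88 in the KO mice. Every KO mouse lay below every WT mouse. Col1a1 fell 1.55-fold, by 0.63 on the log2 scale (SE 0.08, n = 3 per group, limma adjusted p = 0.00022), and kept its call in all 15 alternative analyses, at -0.68 to -0.57.

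Col1a2, the partner chain of Col1a1 in type I collagen, did not follow it. It stood at 7.87, 7.83 and 7.59 in WT and 7.69, 7.93 and 7.77 in KO mice, so the groups overlapped. The difference was 0.04 (95% interval -0.18 to 0.26, limma adjusted p = 0.81). Within each array, the log2 ratio of Col1a1 to Col1a2 was 0.78 ± 0.21 in WT and 0.11 ± 0.05 in KO mice, with groups that did not overlap. The exact permutation test over mice gave p = 0.1, two-sided, the smallest that 3 mice against 3 allow.

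Col2a1, the cartilage collagen and a target of experimental arthritis, was at 7.84, 7.62 and 7.72 in WT and 7.71, 7.73 and 7.62 in KO mice. The groups overlapped, and the difference was -0.04 (95% interval -0.23 to 0.15). Col3a1, which mixes with type I collagen in soft tissues, was at 0.05 (-0.20 to 0.30). Col5a1 and Col5a2, whose products start fibril growth, were at 0.10 and 0.06. Their relative Col5a3 was lower in every KO mouse, at -0.25, and missed the threshold (limma adjusted p = 0.053), which it passed with the stricter intensity filter (0.042) and with array weights (0.023). The cartilage chains Col11a1 and Col11a2 were at 0.20 and 0.16, and Col24a1 and Col27a1, fibrillar chains of developing bone and cartilage, at 0.24 and 0.17, and these 4 were not called. The fibrillar median was 0.06.

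**Figure D3:**
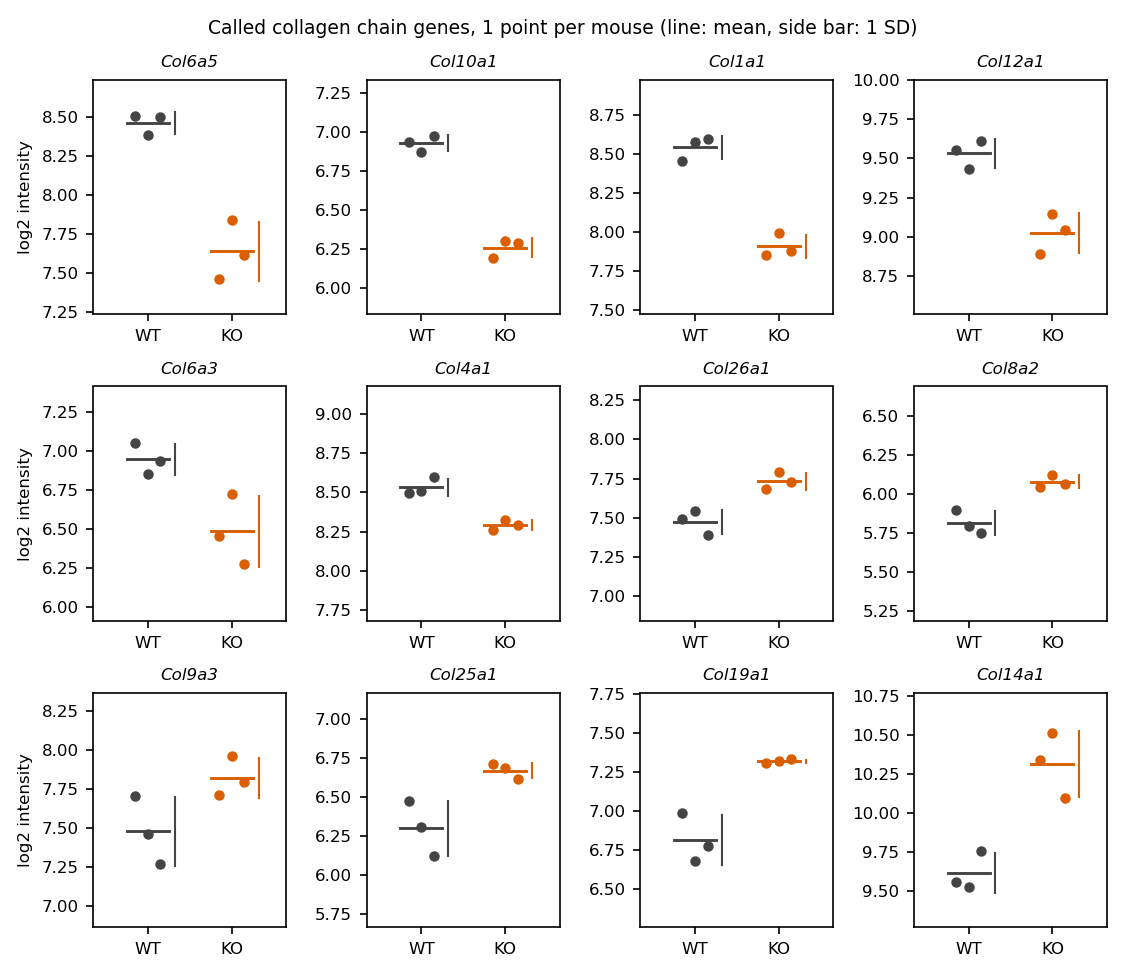
Log2 intensity of the 12 called collagen chain genes in each mouse (grey WT, orange KO, line at the mean, side bar 1 SD, axes of equal height). The panels run from the largest fall plotted, Col6a5 at -0.82 on the probe set used, to the largest rise, Col14a1 at 0.70, and in all 12 the groups do not overlap.

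Basement membrane collagens changed little: of 9 tested, Col4a1 was called lower and 8 were not called. Col4a1 and Col4a2 together make the type IV collagen found under nearly all epithelia and vessels. Col4a1 was at 8.50, 8.51 and 8.60 in WT and 8.26, 8.32 and 8.29 in KO mice, and fell by 0.24 on the log2 scale (SE 0.08, limma adjusted p = 0.040). Every KO mouse lay below every WT mouse, but the call was lost when any 1 of the 6 mice was left out (-0.26 to -0.21, limma adjusted p 0.063 to 0.13), with no intensity filter (0.053), with median centring (0.066) and with the replicate number as a block (0.087). Col4a2 was at 8.18, 8.22 and 8.07 in WT and 8.04, 7.95 and 8.03 in KO mice, also without overlap, and was not called at -0.15 (95% interval -0.33 to 0.03). The log2 ratio of Col4a1 to Col4a2 was 0.38 ± 0.13 in WT and 0.28 ± 0.08 in KO mice and overlapped (exact permutation p = 0.4, two-sided).

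Col4a1 and Col4a2 lie head to head, and their promoters are shown because both chains were lower in every KO mouse. The sequences are from RefSeq (GRCm38.p6), each running 5′ to 3′ on the strand of its gene from 250 bases before the start to 50 after it. The Col4a1 window is chr8:11312777-11313076 on the minus strand and the Col4a2 window chr8:11312555-11312854 on the plus strand. They share 78 bases. Capitals mark matches, on either strand, to 3 boxes. The TATA box was searched as TATAAA. The GC box was searched as GGGCGG. The CCAAT box was searched by the letters of its name. A match is a description and not a site.
Col4a1: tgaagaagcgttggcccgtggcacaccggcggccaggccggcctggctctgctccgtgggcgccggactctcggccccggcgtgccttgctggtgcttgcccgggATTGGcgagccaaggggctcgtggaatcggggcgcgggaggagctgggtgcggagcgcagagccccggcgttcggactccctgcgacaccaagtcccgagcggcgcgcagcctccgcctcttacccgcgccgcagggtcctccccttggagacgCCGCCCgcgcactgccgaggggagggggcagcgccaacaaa
Col4a2: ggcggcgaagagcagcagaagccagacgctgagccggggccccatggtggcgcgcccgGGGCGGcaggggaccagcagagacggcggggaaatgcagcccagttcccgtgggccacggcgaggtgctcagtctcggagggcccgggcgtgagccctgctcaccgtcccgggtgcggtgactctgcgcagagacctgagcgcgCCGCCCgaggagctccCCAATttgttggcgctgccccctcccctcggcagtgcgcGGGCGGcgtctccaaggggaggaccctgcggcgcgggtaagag
Each window holds 1 CCAAT box match, and the GC box matches number 1 for Col4a1 and 3 for Col4a2, with no TATA box match in either. The GC box match of Col4a1 lies in the 78 shared bases and is the same stretch as 1 of the 3 for Col4a2. Among all 32851 promoter windows of that length, 37.4% hold a CCAAT box match, 35.7% a GC box match and 13.6% a TATA box match. Of the 38 windows listed for 35 collagen chain genes, 34.2%, 60.5% and 13.2% do.

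The other type IV chains, which replace Col4a1 and Col4a2 in specialised membranes such as those of kidney and lung, stood slightly higher in KO mice and none was called by limma. Col4a3 was at 0.25 (95% interval 0.03 to 0.47, limma adjusted p = 0.095), Col4a4 at 0.17, Col4a5 at 0.20 and Col4a6 at 0.23. At an unadjusted limma p under 0.05, Col4a3 and Col4a6 were higher. Col4a3 was called when WT replicate 1 was left out (0.34, limma adjusted p = 0.044). Means of these 4 lay between 6.08 and 6.46 in both groups, close to the filter at 5.97. Col7a1, whose collagen anchors epithelium to the tissue below, was at 0.13 and moved to 0.00 in 1 of the analyses that left out a mouse. Col15a1 and Col18a1, which carry sugar chains and sit at the outer face of basement membranes, were at -0.14 and -0.09. Col15a1 was lower in every KO mouse, but with a 95% interval of -0.31 to 0.03.

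Fibril-associated collagens held the largest rises and 1 of the falls: of 9 tested, 3 rose, 1 fell and 5 were not called. Of all tested genes, 12.0% were called higher and 14.1% lower. Col14a1 encodes a collagen that coats fibrils in skin and tendon. It was at 9.56, 9.53 and 9.76 in WT and 10.34, 10.51 and 10.09 in KO mice. All KO mice were above all WT mice. Col14a1 rose 1.62-fold, by 0.70 (SE 0.11, limma adjusted p = 0.00094), and kept its call in all 15 alternatives (0.60 to 0.81).

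Col12a1, the closest relative of Col14a1 and also a fibril coat of tendon and ligament, moved the other way. It was at 9.55, 9.43 and 9.61 in WT and 8.89, 9.14 and 9.04 in KO mice, with no overlap. Col12a1 fell 1.42-fold, by 0.51 on the log2 scale (SE 0.09, limma adjusted p = 0.0021), and kept its call in all 15 alternatives (-0.57 to -0.44).

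Col19a1, found at low levels in basement membrane zones of muscle and nerve, was at 6.99, 6.68 and 6.78 in WT and 7.31, 7.32 and 7.33 in KO mice. The KO mice lay close together and above all WT mice. Col19a1 rose 1.42-fold, by 0.50 (SE 0.09, limma adjusted p = 0.0023), and kept its call in all 15 alternatives (0.41 to 0.59). Its RefSeq neighbour Col9a1 was at -0.11 and not called. The Col19a1 promoter, chr1:24587388-24587687 on the minus strand, is shown as that of the largest rise with a listed window, and it holds none of the searched boxes.
Col19a1: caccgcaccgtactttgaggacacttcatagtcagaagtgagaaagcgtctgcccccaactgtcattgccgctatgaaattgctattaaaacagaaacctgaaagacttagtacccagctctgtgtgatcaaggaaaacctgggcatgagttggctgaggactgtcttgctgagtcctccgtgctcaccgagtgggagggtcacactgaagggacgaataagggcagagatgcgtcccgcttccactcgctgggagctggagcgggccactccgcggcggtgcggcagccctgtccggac

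Type IX collagen decorates cartilage fibrils and is built from Col9a1, Col9a2 and Col9a3. Col9a3 was at 7.70, 7.46 and 7.27 in WT and 7.71, 7.96 and 7.79 in KO mice. The groups were apart by a small margin, and Col9a3 rose by 0.34 (SE 0.12, limma adjusted p = 0.048). The call was lost without WT replicate 2 (limma adjusted p = 0.095) or 3 (0.14) or KO replicate 1 (0.061), 2 (0.15) or 3 (0.10), with no intensity filter (0.057), with array weights (0.084) and with the replicate number as a block (0.054). Col9a2 was higher in every KO mouse at 0.15 and was not called, and Col9a1 was at -0.11. The log2 ratio of Col9a1 to Col9a3 was -0.55 ± 0.15 in WT and -1.0 ± 0.10 in KO mice, without overlap (exact permutation p = 0.1, two-sided). Col16a1 at -0.05, Col20a1 at 0.04 and Col22a1 at 0.11 were not called.

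Of the 6 beaded-filament collagens, the type VI chains, 2 fell and 4 were not called, beside 14.1% of all tested genes called lower. The differences of 5 of the 6 were below 0, with a median of -0.20. These collagens form fine filaments around cells in muscle, skin and cartilage. Col6a5, which can take the place of Col6a3 in the trimer, was at 8.51, 8.38 and 8.50 in WT and 7.47, 7.84 and 7.62 in KO mice. Every KO mouse was below every WT mouse. Col6a5 was 1.77-fold lower and fell by 0.82 on the log2 scale (SE 0.10, limma adjusted p = 0.00014), the largest change among the 43 chains on the probe sets used.

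The probe sets of Col6a5 differed in size but not in direction. The other probe set of the gene was at 8.25, 8.33 and 8.08 in WT and 7.91, 8.09 and 7.91 in KO mice. Its difference was -0.25, and the groups overlapped. With the mean of both probe sets Col6a5 was still called at -0.54, a smaller change than those of Col14a1, Col10a1 and Col1a1, so its rank depends on the probe set. The call was kept in all 15 alternatives. The promoter of Col6a5, chr9:105960594-105960893 on the minus strand, is shown for the chain whose probe sets differed, and it holds 1 GC box match.
Col6a5: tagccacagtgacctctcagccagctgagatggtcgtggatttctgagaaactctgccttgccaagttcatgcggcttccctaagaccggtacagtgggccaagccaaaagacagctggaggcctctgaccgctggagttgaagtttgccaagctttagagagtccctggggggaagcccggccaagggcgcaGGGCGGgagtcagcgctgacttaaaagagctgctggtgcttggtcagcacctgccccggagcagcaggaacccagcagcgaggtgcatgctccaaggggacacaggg

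Col6a3, the large chain of the common type VI trimer, was at 7.05, 6.85 and 6.94 in WT and 6.46, 6.73 and 6.28 in KO mice. The groups did not overlap, and Col6a3 fell 1.37-fold, by 0.46 on the log2 scale (SE 0.11, limma adjusted p = 0.012). The call was lost without KO replicate 3 (-0.35, limma adjusted p = 0.058). Its partner Col6a1 was lower in every KO mouse, at -0.25 (95% interval -0.44 to -0.06, limma adjusted p = 0.051), and passed the threshold in 6 of 15 alternatives. Col6a2, the neighbour of Col6a1, overlapped at -0.06. The log2 ratio of Col6a2 to Col6a3 was 0.90 ± 0.19 in WT and 1.30 ± 0.08 in KO mice, without overlap (exact permutation p = 0.1, two-sided).

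Col6a4, Col6a5 and Col6a6 lie next to each other in the RefSeq gene order and did not move alike. Col6a4 was at -0.16 and Col6a6 at 0.20, both with overlapping groups and not called, on either side of Col6a5 at -0.82. Col6a4 was called with array weights (-0.23, limma adjusted p = 0.046) and without WT replicate 3 (-0.25, 0.047), and Col6a6 without WT replicate 1 (0.30, 0.042). Both probe sets of Col6a6 gave 0.20.

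**Figure D4:**
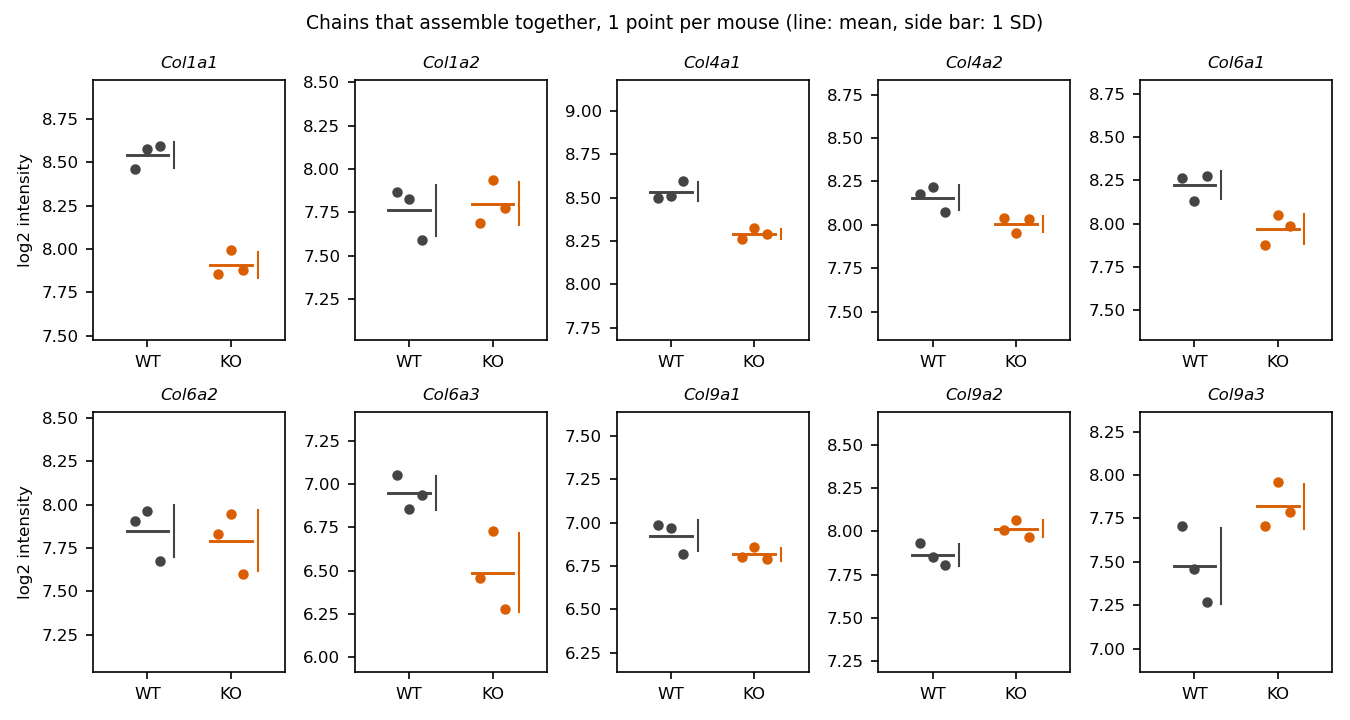
Log2 intensity in each mouse of chains that assemble together in types I, IV, VI and IX (grey WT, orange KO, line at the mean, side bar 1 SD, axes of equal height). Col1a1 lies lower in every KO mouse while Col1a2 overlaps, and Col6a3 lies lower while Col6a2 overlaps.

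Over 17 pairs of chains that assemble in the same trimer, chosen with the values known, the ratio within an array separated the groups in 5. These were Col1a1 to Col1a2, Col5a1 to Col5a3 (0.30 ± 0.14 in WT and 0.65 ± 0.02 in KO), Col6a2 to Col6a3, Col9a1 to Col9a2 (-0.94 ± 0.05 and -1.20 ± 0.02) and Col9a1 to Col9a3. Each gave an exact permutation p = 0.1, or 0.34 after Benjamini-Hochberg adjustment over the 17, so none could pass. In type IV, all 5 pairs compared overlapped. A ratio within an array shows unequal change between probe sets and not the makeup of the protein.

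Among the network-forming chains, 1 fell, 1 rose and 1 was not called. Col10a1 marks the enlarged cartilage cells that precede bone. It was at 6.94, 6.87 and 6.97 in WT and 6.19, 6.30 and 6.29 in KO mice. The groups were far apart against their SDs of 0.05 and 0.06. Col10a1 fell 1.59-fold, by 0.67 on the log2 scale (SE 0.08, limma adjusted p = 0.00011), and kept its call in all 14 alternatives that tested it (-0.69 to -0.50).

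The Col10a1 promoter, chr10:34389731-34390030 on the plus strand, is shown for a fall that kept its call throughout. It is the only one of the 5 printed windows with a TATA box match, and it has 6 CpG sites, beside 37 for Col4a1. The median was 7.0 over all 32851 windows and 11.5 over the 38 collagen windows.
Col10a1: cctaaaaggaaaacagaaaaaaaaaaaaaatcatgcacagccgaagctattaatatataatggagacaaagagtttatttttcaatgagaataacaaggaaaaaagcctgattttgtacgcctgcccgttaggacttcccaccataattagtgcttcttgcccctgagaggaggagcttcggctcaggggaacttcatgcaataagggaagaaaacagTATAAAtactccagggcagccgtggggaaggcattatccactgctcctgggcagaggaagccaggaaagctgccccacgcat

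Col8a2, a chain of the membrane under the corneal endothelium, was at 5.90, 5.79 and 5.75 in WT and 6.04, 6.12 and 6.07 in KO mice. It passed the filter on the KO arrays alone, so it had to be higher to be tested. Col8a2 rose by 0.26 (SE 0.08, limma adjusted p = 0.034). The call was lost without WT replicate 2 (limma adjusted p = 0.087) or 3 (0.064) or KO replicate 1 (0.074), 2 (0.088) or 3 (0.086), with an offset of 32 (0.080), with trended, robust variances (0.069) and with the replicate number as a block (0.072). Its partner Col8a1 overlapped at 0.06.

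All 4 transmembrane collagens stood higher in every KO mouse, and 1 of them, Col25a1, was called. Over all tested genes, the groups did not overlap for 42.4%, in either direction. WT replicate 3, the array with the lowest collagen values, gave the lowest value for Col13a1, Col23a1 and Col25a1. Col25a1, a neuronal collagen also found in amyloid plaques, was at 6.47, 6.31 and 6.12 in WT and 6.71, 6.68 and 6.61 in KO mice. It rose 1.29-fold, by 0.37 (SE 0.10, limma adjusted p = 0.018). The call was lost without KO replicate 1 (0.064) or KO replicate 2 (0.0501).

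Col17a1 is the collagen of hemidesmosomes, the rivets that hold basal epithelial cells to their basement membrane. It was at 8.48, 8.27 and 8.62 in WT and 8.65, 8.79 and 8.67 in KO mice. The difference was 0.24 (95% interval 0.02 to 0.46, limma adjusted p = 0.095), and it was called with array weights (0.28, limma adjusted p = 0.032) and without WT replicate 3 (0.33, 0.033). Col13a1, a collagen of the synapse between nerve and muscle, was at 0.38 (limma adjusted p = 0.063) on a WT spread of 0.33. It was called in 4 of 14 alternatives, the replicate block (0.046) and median centring (0.039) among them. Col23a1 was at 0.27 (limma adjusted p = 0.083), and was called when quantile normalization was applied again (0.048).

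Col26a1, a secreted collagen of testis and ovary, was at 7.49, 7.54 and 7.39 in WT and 7.68, 7.79 and 7.73 in KO mice. It rose by 0.26 (SE 0.08, limma adjusted p = 0.038). The call was lost without WT replicate 1 (limma adjusted p = 0.0775) or 3 (0.0767), without KO replicate 1 (0.072), 2 (0.10) or 3 (0.10), and with the replicate number as a block (0.073). Col28a1 lay under the filter on all 6 arrays, at 5.48, 5.45 and 5.16 in WT and 5.55, 5.86 and 5.61 in KO mice, and was not tested.

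Genes that fold, cut, bind and degrade collagen moved in both directions. Of 96 listed genes 90 were measured and 69 tested, of which 21 fell, 10 rose and 38 were not called. That is 44.9%, beside 26.2% of all tested genes, and the median was -0.10. By 2-fold or more 5 fell and 1 rose, beside 2.64% of all tested genes called at that size in either direction. Dim members were left out of these counts, and those bright in 1 group alone could be tested only if they differed. The counts for each list below, markers included, stand beside 14.1% of all tested genes called lower and 12.0% called higher. These lists were chosen with earlier results of these data known.

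**Figure D5:**
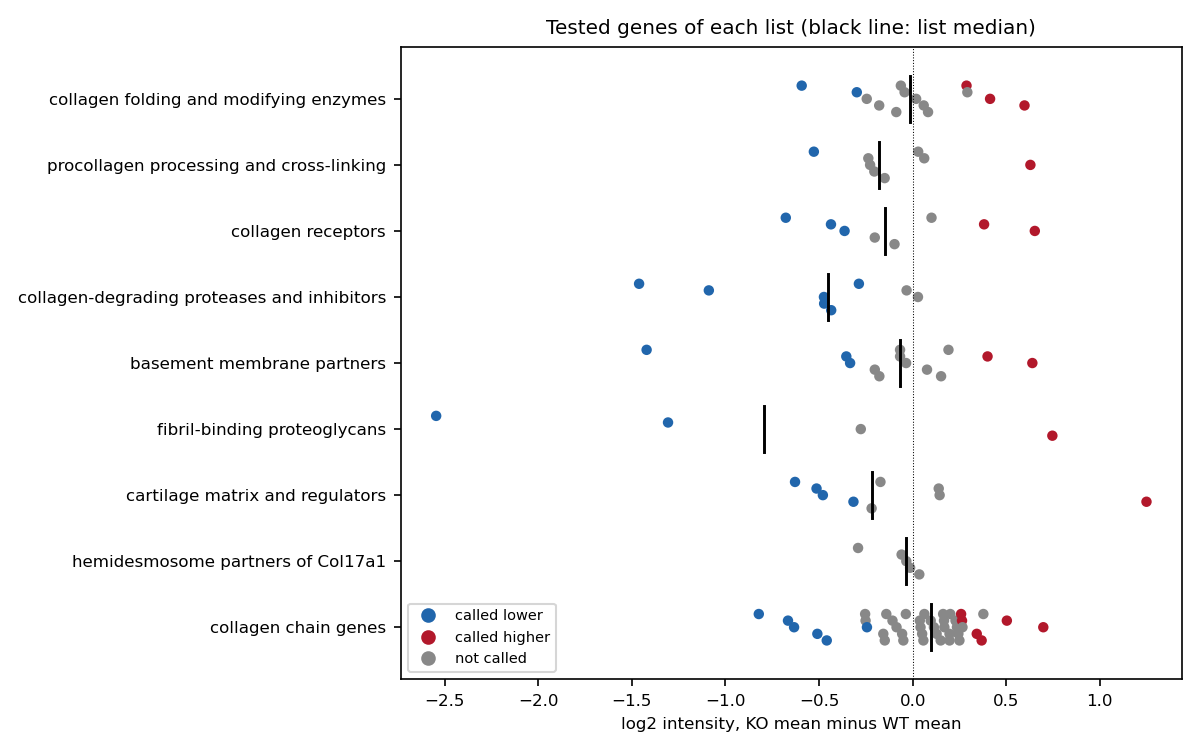
Difference in log2 intensity (KO mean minus WT mean) of each tested gene in the collagen-related lists and of the collagen chain genes (blue called lower, red called higher, grey not called, black line the list median). Medians run from -0.79 for fibril-binding proteoglycans to 0.10 for the chains. The -0.79 rests on 4 tested genes, with Aspn tested only through its WT values, and the median of the 8 measured is -0.21. Of the 5 hemidesmosome genes 4 lie between -0.06 and 0.04 and Cd151 at -0.29.

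Folding and modifying enzymes, which work in the endoplasmic reticulum before collagen is secreted, split: 3 of 14 rose and 2 fell. P3h1, a prolyl 3-hydroxylase, rose 1.51-fold from 7.51 ± 0.08 to 8.11 ± 0.21, and the prolyl 4-hydroxylase genes P4ha2 and P4ha1 rose by 0.41 and 0.29. The P4ha1 call was lost without WT replicate 2 (limma adjusted p = 0.075) or KO replicate 1 (0.085) or 2 (0.064). Plod2, which hydroxylates lysines used for cross-links, fell 1.51-fold from 6.94 ± 0.05 to 6.34 ± 0.21. The collagen chaperone gene Serpinh1 fell by 0.30.

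Of 8 tested genes for procollagen processing and cross-linking, 1 rose and 1 fell. The lysyl oxidase relative Loxl3 rose 1.55-fold from 7.86 ± 0.05 to 8.49 ± 0.03, with no overlap. Loxl4 fell 1.44-fold from 7.51 ± 0.22 to 6.98 ± 0.23, a call that ended without KO replicate 2 (limma adjusted p = 0.055) or 3 (0.063). Bmp1, which removes the end pieces of fibrillar procollagens, was at 0.03 and not called.

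Collagen receptors changed in 5 of 8 tested, 3 down and 2 up. Itga1, the integrin chain that prefers type IV collagen, rose 1.57-fold from 7.04 ± 0.03 to 7.69 ± 0.08, and Itga10, an integrin chain of cartilage cells, rose by 0.38. Itga10 lost its call with array weights (limma adjusted p = 0.0501) and without WT replicate 1 (0.063) or 3 (0.094) or KO replicate 1 (0.070) or 2 (0.11). Itgb1, the common partner of both, fell 1.35-fold from 10.16 ± 0.11 to 9.72 ± 0.11. Adgrg1, a receptor for type III collagen, fell 1.60-fold from 7.76 ± 0.10 to 7.08 ± 0.11. Ddr2, a kinase receptor for fibrillar collagens, fell by 0.36.

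Collagen-degrading proteases and their inhibitors fell in 6 of 8 tested, and 0 rose by limma, beside 14.1% and 12.0% of all tested genes. At an unadjusted limma p under 0.05, 6 were lower and 0 higher, beside 19.4% and 19.2% of all tested genes. Mmp13, a collagenase of cartilage, was at 7.62, 7.17 and 7.56 in WT and 5.81, 6.05 and 6.11 in KO mice, and fell 2.75-fold (limma adjusted p = 7.8e-06). The inhibitor gene Timp2 fell 2.13-fold from 8.27 ± 0.27 to 7.18 ± 0.18, Mmp9 1.35-fold, Mmp14 1.39-fold, Timp1 by 0.29 and Timp4 by 0.47 on the log2 scale. Proteases and inhibitors were thus both among the genes that fell. Timp3 and Mmp2 were at -0.03 and 0.03. The macrophage markers Adgre1, Itgam and Csf1r also fell, 2.99-fold, 2.45-fold and 1.45-fold by limma (adjusted p = 2.3e-07, 3.4e-05 and 0.0011). Adgre1 and Itgam were above the filter in WT mice alone, so they had to be lower to be tested. Lyz2, the brightest of the dendritic cell and macrophage markers, was at -0.06 and not called. The part of macrophages in these falls and in that of Nid1 was not tested.

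Basement membrane partners of the type IV chains, the laminins, nidogens and heparan sulfate proteoglycans, moved both ways: 3 of 13 fell and 2 rose. Nid1, which links laminin to type IV collagen, was at 7.39, 7.27 and 7.81 in WT and 5.97, 6.23 and 6.01 in KO mice, and fell 2.68-fold (limma adjusted p = 1.5e-05). Its relative Nid2 fell 1.28-fold. Lamb1, a laminin chain, rose 1.56-fold from 8.18 ± 0.10 to 8.82 ± 0.06, and Hspg2, the gene of perlecan, rose 1.32-fold from 7.95 ± 0.03 to 8.35 ± 0.09. Lamb3, a laminin chain of skin, fell by 0.33 with overlapping groups. The 5 hemidesmosome partners of Col17a1 were not called: Itga6, Itgb4, Dst and Plec lay between -0.06 and 0.04 and Cd151 at -0.29, and 1 of the 5 passed an unadjusted limma p under 0.05.

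Fibril-binding proteoglycans coat collagen fibrils and set their spacing. Of 8 measured, 4 were tested, of which 2 fell and 1 rose. Aspn, the gene of asporin, was at 6.87, 6.04 and 6.70 in WT and 3.86, 3.95 and 4.17 in KO mice. It fell 5.84-fold (limma adjusted p = 1.5e-06), was above the filter in WT mice alone, so it had to be lower to be tested. Bgn, the gene of biglycan, fell 2.47-fold from 7.39 ± 0.20 to 6.08 ± 0.36. Dcn, the gene of decorin, rose 1.68-fold from 9.35 ± 0.30 to 10.10 ± 0.24, in the direction of Col14a1.

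Among 9 tested cartilage matrix genes and regulators, 4 fell and 1 rose. Matn1 fell 1.55-fold from 7.27 ± 0.14 to 6.65 ± 0.17, Comp 1.43-fold, Cnmd 1.39-fold from 10.85 ± 0.08 to 10.37 ± 0.08, and Chad by 0.32 on the log2 scale. Epyc, a cartilage proteoglycan, rose 2.38-fold from 8.01 ± 0.14 to 9.26 ± 0.22. Sox9, the transcription factor of cartilage that drives Col2a1, was lower in every KO mouse, at -0.17, and not called (limma adjusted p = 0.13). Col2a1 was at -0.04 with overlapping groups.

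Of 15 fibroblast markers, 14 were measured and 10 tested: Cd34, Mfap5 and Fbln1 fell and Dcn rose, and Lum and Dpt lay under the filter on all arrays. Their summed intensity was 1933 to 2300 in WT and 2118 to 2616 in KO mice and overlapped, a sum carried by Dcn. Without Dcn, the brightest member, it was 1408 to 1510 in WT and 1146 to 1290 in KO mice, lower in every KO mouse. Of the 10 tested members, 7 were below 0, with a median of -0.17. Sums without the brightest member of a list were added after the values were seen. Summed endothelial markers were 962 to 1014 and 972 to 1023, with 1 of 9 tested called, and summed mural cell markers 4490 to 4545 and 4421 to 4822, with 4 of 10 lower and 2 higher. Without Rgs5, its brightest member, the mural sum was 3068 to 3127 in WT and 3243 to 3557 in KO mice. That sum holds Des, which rose 2.18-fold from 9.22 ± 0.06 to 10.35 ± 0.04, and Cspg4, which rose 1.69-fold. Acta2, Myh11, Tagln and Abcc9 fell. Of the 10 mural markers 6 were below 0, with a median of -0.15, so the higher sum does not stand for the list. Krt5, Krt14 and Krt15, 3 of 7 basal keratinocyte markers, fell, and the summed intensity of the 7 was 6358 to 6711 in WT and 5003 to 5547 in KO mice. Summed cortical epithelial markers were 5294 to 5682 and 6929 to 7245, or 2842 to 3187 and 3509 to 3775 without Ccl25, the brightest. Of 6 tested, Tbata, Ccl25 and Prss16 rose, by 0.50, 0.49 and 0.36, and Enpep fell 1.99-fold. Ly75 and Dll4 overlapped and were not called, and Psmb11 lay under the filter on all arrays. Tbata, from 10.67 ± 0.06 in WT to 11.17 ± 0.03 in KO mice, was the brightest member left in the sum without Ccl25. Thymocyte markers summed to 1569 to 2267 and 1255 to 1542, or to 1103 to 1852 and 792 to 1079 without Thy1, the brightest. The 2267 was WT replicate 3, beside 1595 and 1569 in WT replicates 1 and 2. Of 9 tested, Cd3g fell 2.63-fold and Ptprc 1.54-fold (limma adjusted p = 0.0072 and 0.022), and 7 were not called. B cell markers summed to 1992 to 2052 and 2253 to 2429, or to 423 to 439 and 480 to 508 without Blnk, the brightest. All 3 tested B cell markers rose, and Ms4a1 and Cd79a, under the filter on all arrays, were at -0.48 and -0.11. Dendritic cell and macrophage markers summed to 3457 to 3718 and 3269 to 3315, or to 927 to 1043 and 822 to 847 without Lyz2, the brightest. Of the 7 tested, Adgre1, Itgam and Csf1r fell and Zbtb46 rose. Adgre1 and Itgam passed the filter through their WT values alone. The part of other cells in the collagen differences was not tested.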

How the data were processed

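The authors deposited 1 table of RMA intensities on a linear scale for 35512 probe sets, RMA being named in the submitters' processing notes, and the software version, the genome build and the set of arrays normalized together are not stated in the labels or headers used here. RMA makes the distributions of arrays alike, with medians of 92.9 to 98.2 here, so a shift in a cell's total RNA would not show. Folds of dim genes are compressed by background. Symbols come from the platform annotation, and all 44 collagen genes matched RefSeq (GRCm38.p6) by Entrez identifier. The table's 6 columns were matched to samples by name.

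Values were log2 transformed (pseudocount 0). Where several 1-symbol probe sets measure a gene, the one of highest mean stands for it, which gave 19938 genes, and the intensity filter left 13925. Genotype was the only factor in limma 3.58.1 (R 4.3.3, lmFit and eBayes, two-sided, Benjamini-Hochberg adjustment), with figures drawn by matplotlib 3.10.9. The test was checked on simulated arrays. Alternatives covered the filter, normalization, an offset, trended variances, array weights, how probe sets of a gene are combined, a replicate block and each mouse left out. Named genes are all chains and up to 4 called members of each related list by adjusted p; other genes were named after their values were seen. The members and lists were chosen with earlier results of these data known. No batch is named in the labels.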

Additional observations from a re-analysis of the deposited data

How the results depend on the processing

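The number of collagen chains called lower was 5 to 9 under the 9 alternatives that kept all mice, and 4 to 6 with 1 mouse left out. The number called higher was 4 to 8 and, with 1 mouse left out, 2 to 7. Collagen-related genes called lower numbered 14 to 25, and 15 to 21 with 1 mouse left out, and those called higher 10 to 12 and 8 to 10. Of 630 values for single chains under the alternatives, 563 kept their direction and side of the threshold, 34 lost a call, 19 gained one and 14 turned sign, all 14 in chains that were not called. With array weights Col1a2 was at -0.0403, Col3a1 at -0.0530 and Col5a2 at -0.0207. With 1 mouse left out, Col1a2 ran from -0.0468 to 0.0932, Col2a1 from -0.0899 to 0.0211, Col3a1 from -0.0570 to 0.119, Col5a2 from -0.0662 to 0.162, Col6a2 from -0.142 to 0.0386, Col8a1 from -0.0424 to 0.131 and Col16a1 from -0.139 to 0.0307; the cause was not tested. Over all tested genes, 17.4% were called without KO replicate 1, beside 26.2% with all mice. The share called was 31.1% with array weights.

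Replicate numbers are shared by the groups. Same-numbered mice deviated from their group means with correlations of -0.02, -0.21 and -0.06 across genes, and differently numbered mice with -0.10 to 0.15. Deviations from a mean cancel within each group, so these values cannot decide whether the numbers pair the mice. With the replicate number as a block, 5 chains were called lower and 4 higher, beside 6 and 6 without it, and 20 related genes lower and 10 higher.

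Signal over background limits the dim chains most: Col28a1 was tested only with no filter (0.31, limma adjusted p = 0.070), and the 60th percentile filter kept 27 chains.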
